A study of Homo sapiens with 21 samples.

Results

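Collagen chains are the polypeptides that wind, in sets of 3, into collagen molecules, the main structural proteins of the extracellular matrix. The transcripts of all protein-coding genes named COL, a type number, A and a chain number were taken, which gave 44 genes of the 58735 in the deposited count table. RNA sequencing measured them in cells with the label HepG2, an established line from a human hepatic tumour. The cells had spent 24 h without serum in DMEM with coumarin, a plant benzopyrone, at 0.001, 0.01, 0.1, 1, 10 or 100 µM, or with no coumarin (0 µM). Each of the 7 groups has 3 libraries, which the submitters call biological replicates, and the 21 libraries held 26984563 to 43375429 counts on genes. The line is the only cell source, so p-values measure the spread between these cultures. The question the design poses is which chains the cells transcribe without coumarin and which change over the doses.

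Collagen types are grouped by how they assemble. Fibrillar collagens form the banded fibrils of connective tissue, and fibril-associated collagens with interrupted helices decorate those fibrils. Network-forming collagens build sheets, type IV being the scaffold of basement membranes, type VII anchors basement membranes to the tissue beneath, and the multiplexins XV and XVIII sit at basement membranes. Chains assemble with each other before secretion. Type I is normally built from COL1A1 and COL1A2 chains and type V normally from COL5A1 and COL5A2, whereas type III needs only COL3A1. In liver, hepatic stellate cells and other mesenchymal cells are known as the main makers of fibrillar collagen.

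The label was set against marker transcripts. Of 14 hepatocyte markers, 5 (ALB, TTR, APOC3, FGB and RBP4) had 0 counts in all 21 libraries, and none reached 1 CPM (counts scaled to library size, with TMM factors). Their summed level was 0 to 0.279 CPM at 100 µM and 0.0334 to 0.161 CPM at 0 µM. These markers do not bear out the hepatic origin in the label. The identity of the line was not tested beyond such markers, so the cells are called by their label only. Of 6 epithelial markers, 3 reached 1 CPM, the keratins KRT8, KRT18 and KRT7, at 2498, 1198 and 751 CPM over the 21 libraries. KRT19, EPCAM and CDH1 averaged 0.0575, 0.00164 and 0.208 CPM. Of 11 mesenchymal markers, 7 reached 1 CPM, among them VIM at 312 CPM and PDGFRB at 36.2 CPM, while PDGFRA and LRAT, a stellate cell gene, had 0 counts. Defining markers of chondrocytes (4), endothelium (3) and leukocytes (2) were all under 1 CPM. The libraries at 0 µM do not form an even group. In every library the total behind the deposited FPKM (fragments scaled by gene length and library total) exceeded the counts on genes. At 0 µM this excess, as a percentage of the counts on genes, was 4.07% in replicate 1, 8.73% in replicate 2 and 8.90% in replicate 3. In the 18 treated libraries it was 1.06% to 5.75%. Results that rest on replicates 2 and 3 are therefore also given with replicate 1 as the only control, the spread then being taken from the treated groups.

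Without coumarin, 15 of the 44 chains reached 1 FPKM, scaled by the gene lengths of the deposited table, and these held 99.1% of the summed collagen FPKM. A further 9 chains lay between 0.1 and 1 FPKM, and 20 lay under 0.1 FPKM. COL3A1, the chain of type III fibrils, stood first with 169, 163 and 159 FPKM in the 3 libraries at 0 µM. It made up 46.7% of the summed collagen FPKM and ranked 163 among protein-coding genes. COL12A1, a chain that coats type I fibrils, followed with 32.3 ± 2.15 FPKM (SD, n = 3), then the type V chain COL5A1 with 26.7 ± 0.764 and the multiplexin COL15A1 with 26.2 ± 0.362 FPKM. The ranges of COL5A1 and COL15A1 overlapped, at 26.2 to 27.6 FPKM and 25.97 to 26.7 FPKM, so their order is not fixed by these libraries. By the deposited lengths these first 4 chains held 71.1% of the sum.

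**Figure D1:**
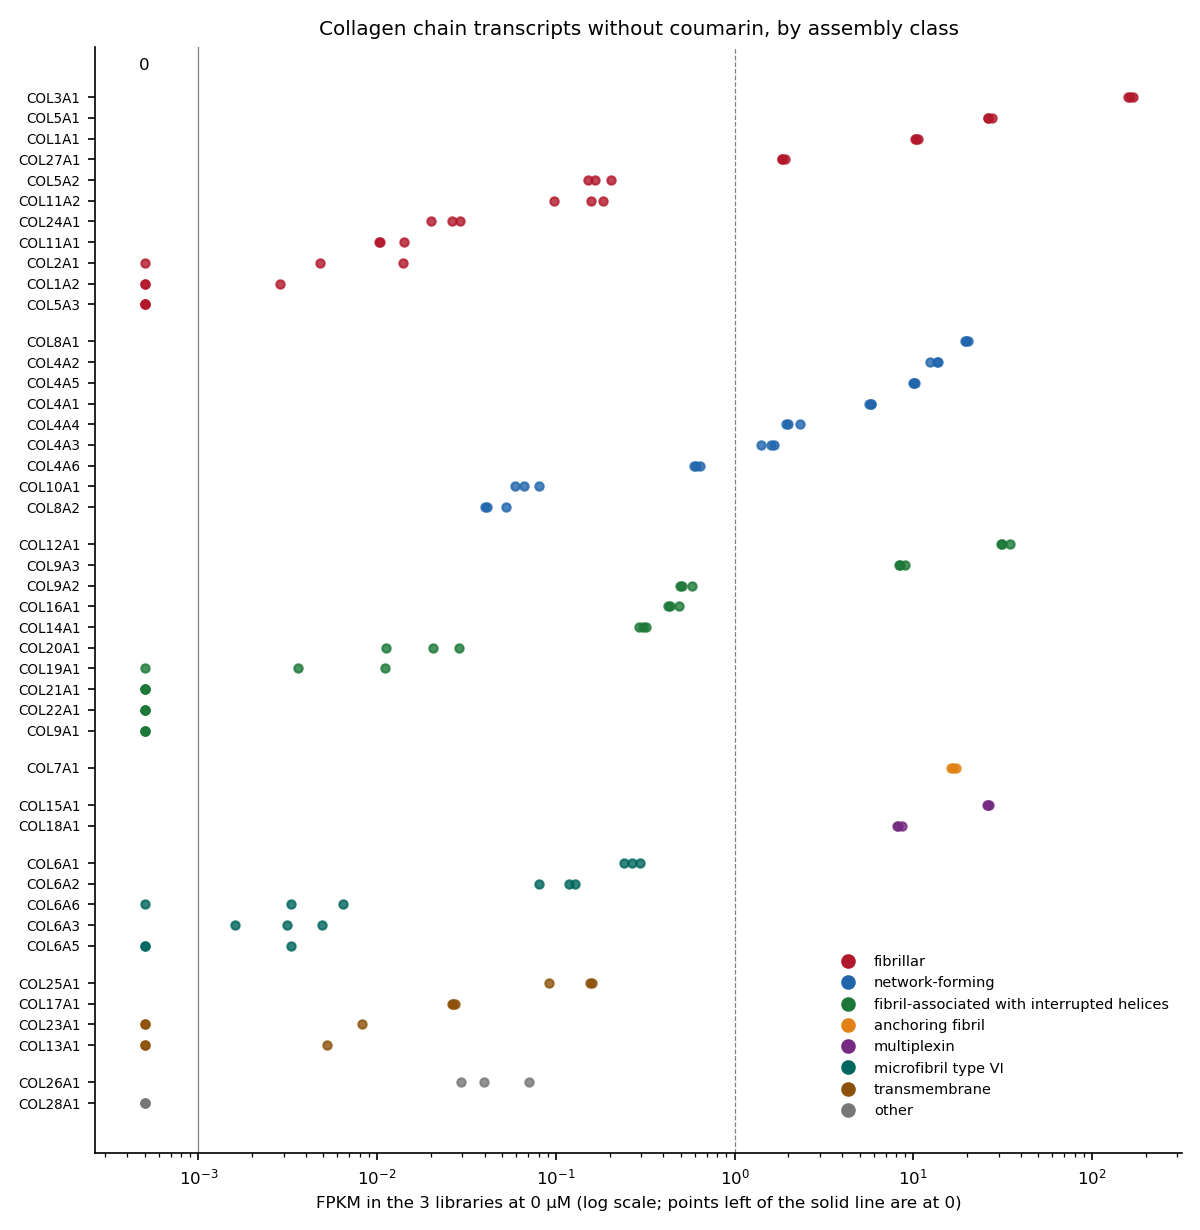
FPKM of each of the 44 collagen chains in the 3 libraries at 0 µM (points, log axis), grouped by assembly class; the dashed line marks 1 FPKM and points left of the solid line are at 0. COL3A1 lies at 159 to 169 FPKM, 14 other chains lie to the right of the dashed line, and COL1A2, COL5A3 and COL9A1 lie at or near 0.

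Network-forming chains came next. COL8A1, a short-chain collagen of vessel and corneal matrices, had 19.8 ± 0.371 FPKM, and all 6 type IV chains were detected. COL4A2 had 13.2 ± 0.731 FPKM and its partner COL4A1 5.75 ± 0.109 FPKM, COL4A5 had 10.1 ± 0.105 FPKM and COL4A6 0.613 ± 0.0252 FPKM. COL4A4 and COL4A3, which join COL4A5 in the filtration membrane of the kidney glomerulus, had 2.08 ± 0.215 and 1.56 ± 0.138 FPKM. COL7A1, the anchoring fibril chain, had 16.7 ± 0.453 FPKM, COL18A1, the source of endostatin, 8.32 ± 0.329 FPKM, COL1A1 10.4 ± 0.226 FPKM, COL9A3 8.59 ± 0.342 FPKM and the cartilage chain COL27A1 1.86 ± 0.0384 FPKM. The order below COL3A1 depends on the length used: the deposited length of COL4A2 is 19293 bases and its longest coding transcript 6494. Scaled by the longest coding transcript, the first 4 chains were COL3A1 at 201, COL4A2 at 39.2, COL5A1 at 35.25 and COL12A1 at 34.4 FPKM, COL15A1 was at rank 6, COL4A1 was at 12.8 FPKM, and again 15 chains reached 1 FPKM.

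Some chains were far more abundant than the chain they usually pair with. COL1A2 had 3 counts over all 21 libraries, while COL1A1 averaged 113.6 CPM over them. COL5A1 exceeded COL5A2, which had 0.173 ± 0.0272 FPKM, by a factor of 157 ± 24.1 (SD, n = 3) at 0 µM, and COL5A3 had 3 counts in all. COL9A3 exceeded COL9A2 by a factor of 16.4 ± 1.63, and COL9A1 had 11 counts in all. These factors use the deposited lengths, and their SDs do not cover the choice of length. Scaled by the longest coding transcript, COL5A1 and COL5A2 had 35.25 and 0.182 FPKM, and COL9A3 and COL9A2 had 16.6 and 0.776 FPKM. Of type VI, the beaded microfibrils, COL6A1 had 0.267 and COL6A2 0.109 FPKM and COL6A3 0.00322 FPKM, so no type VI chain reached 1 FPKM. The 19 chains left out of the tests for low counts held 0 to 156 counts each over the 21 libraries and at most 19 in any library. They are COL1A2, COL2A1, COL5A3, COL6A3, COL6A5, COL6A6, COL8A2, COL9A1, COL11A1, COL13A1, COL17A1, COL19A1, COL20A1, COL21A1, COL22A1, COL23A1, COL24A1, COL26A1 and COL28A1. COL22A1 had 0 counts throughout, which leaves room for 3 counts, or 0.112 CPM, in the smallest library.

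The 6 type IV genes lie in 3 head-to-head pairs, each transcribed away from a stretch of DNA between the starts of its members. These stretches are shown because the partners of each pair are compared below. They come from RefSeq on build GRCh38.p14, plus strand, 5′ to 3′, with capitals for CCAAT and GGGCGG on either strand, the core letters of the CCAAT box and the GC box. The first is the 126 bases between the RefSeq starts at chr13:110307158-110307283. The second is the 111 bases between the gene starts of the deposited annotation, of 418 between the RefSeq starts, at chr2:227164454-227164564. The last is the 250 bases nearest the COL4A5 start, of 379 between the RefSeq starts, at chrX:108439588-108439837.
COL4A1 to COL4A2: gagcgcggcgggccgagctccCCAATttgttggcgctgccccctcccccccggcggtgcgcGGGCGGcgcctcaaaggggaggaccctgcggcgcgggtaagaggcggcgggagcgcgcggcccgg
COL4A4 to COL4A3: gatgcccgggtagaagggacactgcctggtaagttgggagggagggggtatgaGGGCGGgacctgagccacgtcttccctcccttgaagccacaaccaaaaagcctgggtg
COL4A6 to COL4A5: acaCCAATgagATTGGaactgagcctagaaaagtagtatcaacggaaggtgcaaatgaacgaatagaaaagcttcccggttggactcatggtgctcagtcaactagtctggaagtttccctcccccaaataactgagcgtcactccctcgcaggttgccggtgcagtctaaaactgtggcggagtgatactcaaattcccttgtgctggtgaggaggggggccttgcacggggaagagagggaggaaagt
The first holds 1 CCAAT and 1 GGGCGG, the second 1 GGGCGG, and the last 2 CCAAT, 1 on each strand. The 2 motifs do not overlap anywhere in them, and TATAAA is in none. Among the stretches of the same length before the start in 35116 RefSeq promoter windows, CCAAT was in 21.1%, 19.5% and 32.0%, GGGCGG in 34.6%, 32.9% and 42.6%, and TATAAA in 5.9%, 5.3% and 10.7% for the lengths of the 3 stretches in that order. In the deposited annotation, which has the coordinates of GENCODE release 29 for all 44 chains, the COL4A1 and COL4A2 genes overlap by 1422 bases.

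At 100 µM against 0 µM, 10 of the 25 chains that held enough counts to be tested passed, 3 higher and 7 lower (quasi-likelihood test of edgeR, p adjusted by Benjamini-Hochberg over 16699 genes and under 0.05). Of all genes tested, 27.3% passed, 14.4% higher and 12.9% lower, and of those averaging at least 10 CPM 37.4%, against 6 of the 15 chains at that level, so the share of chains called was near the background for that level. The lower chains were COL3A1, COL8A1, COL9A3, COL9A2, COL4A6, COL16A1 and COL14A1, and the higher ones COL4A2, COL4A1 and COL27A1. With control replicate 1 alone 6 of 28 tested chains passed, 1 higher and 5 lower, where 12.6% of all genes passed. In RNA from whole cultures, fewer cells with a transcript and less of it per cell cannot be told apart. The median change was -0.09 on the log2 scale over the 25 chains and -0.01 over all genes tested. All collagen transcripts together made up 3041 ± 49.8 CPM at 100 µM and 3257 ± 61.7 CPM at 0 µM (SD, n = 3 each), and COL3A1 took 31.2% of collagen counts at 100 µM and 35.7% at 0 µM.

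Among fibrillar chains, COL3A1 fell and COL27A1 rose. COL3A1 had 959, 960 and 931 CPM at 100 µM, against 1196, 1163 and 1131 CPM at 0 µM. All 3 libraries at 100 µM lay below every library of the other doses, whose lowest was 1117 CPM at 10 µM. The difference was -0.29 ± 0.04 on the log2 scale (SE), 1.23-fold lower (edgeR adjusted p = 3.09e-07). COL27A1 had 31.5, 32.1 and 31.6 CPM at 100 µM, against 26.7, 27.1 and 27.9 CPM at 0 µM, groups that do not overlap, a log2 change of 0.22 ± 0.07 (edgeR adjusted p = 0.0199). Its call was lost in 9 of 17 alternative analyses, with adjusted p up to 0.151, and the test of all 7 groups did not pass for it (edgeR adjusted p = 0.124). COL1A1 had 119, 113 and 111 CPM at 100 µM, against 109, 105 and 107 CPM at 0 µM, and did not pass (log2 change 0.09 ± 0.05, edgeR adjusted p = 0.202), and COL5A1 had 296, 297 and 287 CPM against 306, 323 and 307 CPM and did not pass either (edgeR adjusted p = 0.184). COL5A2 averaged 1.27 ± 0.247 CPM at 100 µM and 1.34 ± 0.213 CPM at 0 µM.

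Among network-forming chains, COL8A1 and COL4A6 fell while COL4A2 and COL4A1 rose. COL8A1 had 148, 156 and 155 CPM at 100 µM, against 198, 191 and 194 CPM at 0 µM, with no overlap, a log2 change of -0.34 ± 0.04 (edgeR adjusted p = 5.24e-09). COL4A6 had 3.49, 3.98 and 4.36 CPM at 100 µM, against 6.18, 5.72 and 5.91 CPM at 0 µM, a log2 change of -0.58 ± 0.11 (edgeR adjusted p = 6.01e-05). All 3 values at 100 µM lay below those of the other 18 libraries, the lowest of which was 4.91 CPM. Its neighbour COL4A5, a chain mutated in Alport syndrome, had 113, 126 and 120 CPM at 100 µM, against 123, 127 and 125 CPM at 0 µM, and did not pass (log2 change -0.06 ± 0.04, edgeR adjusted p = 0.284). The COL4A5 to COL4A6 ratio of FPKM was 23.9 ± 2.13 at 100 µM, against 16.5 ± 0.843 at 0 µM, and its lowest value at 100 µM, 21.4, was above its highest at any other dose, 18.9. COL4A5 passed in no comparison, and its group means differed by at most 1.05-fold over the 7 groups (edgeR adjusted p = 0.791 for the test of all 7).

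COL4A2 had 315, 328 and 328 CPM at 100 µM, against 271, 277 and 249 CPM at 0 µM, with no overlap, a log2 change of 0.28 ± 0.05 or 1.22-fold higher (edgeR adjusted p = 3.98e-05). Its partner COL4A1 had 100.2, 103 and 102 CPM at 100 µM, against 89.5, 89.3 and 86.7 CPM at 0 µM, a log2 change of 0.20 ± 0.05 (edgeR adjusted p = 0.000609). These rises were seen over 0 µM and not over the lower doses, at which both chains also lay above 0 µM. COL4A2 kept its call in 16 of 17 alternative analyses, all but the one with the lower doses as reference. Against the 12 libraries at 0.001 to 1 µM, the change at 100 µM was -0.04 ± 0.04 for COL4A2 and 0.00 ± 0.04 for COL4A1, with edgeR adjusted p of 0.505 and 0.966, and with control replicate 1 alone COL4A1 no longer passed (edgeR adjusted p = 0.0532). The COL4A2 to COL4A1 ratio of FPKM was 2.42 ± 0.0227 at 100 µM and 2.29 ± 0.088 at 0 µM. COL4A4 had 19.1, 21.0 and 19.7 CPM at 100 µM and 20.3, 24.6 and 20.9 CPM at 0 µM, and its partner COL4A3 had 13.4, 14.3 and 13.5 CPM at 100 µM and 13.3, 15.3 and 15.9 CPM at 0 µM. Both overlapped between the groups and neither passed, with edgeR adjusted p of 0.116 and 0.293.

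Of the 5 tested fibril-associated chains with interrupted helices, 4 fell at 100 µM. COL9A3, a chain of the collagen that covers cartilage type II fibrils, had 31.5, 29.5 and 32.1 CPM at 100 µM, against 45.3, 42.4 and 42.5 CPM at 0 µM, a log2 change of -0.48 ± 0.06 (edgeR adjusted p = 1.99e-08). Its partner COL9A2 had 1.40, 2.005 and 1.46 CPM at 100 µM, against 2.24, 2.17 and 2.55 CPM at 0 µM, a log2 change of -0.52 ± 0.17 (edgeR adjusted p = 0.0182). Neither chain had overlapping groups, but the call for COL9A2 was lost in 5 of 17 alternatives, with adjusted p up to 0.22. COL16A1, a minor chain found near fibrils in skin and cartilage, had 2.69, 2.55 and 3.24 CPM at 100 µM, against 4.08, 4.21 and 4.75 CPM at 0 µM, a log2 change of -0.61 ± 0.13 (edgeR adjusted p = 0.00059). COL14A1, which binds the fibril proteoglycan decorin, had 1.255, 1.73 and 1.18 CPM at 100 µM, against 2.64, 2.80 and 2.87 CPM at 0 µM. Its log2 change of -1.01 ± 0.18, or 2.01-fold lower, had the largest size among the 25 chains (edgeR adjusted p = 2.79e-05). For COL14A1 and COL16A1 every library at 100 µM lay below all 12 libraries at 0.001 to 1 µM, the lowest of which were 2.34 and 3.87 CPM, but with control replicate 1 alone COL16A1 no longer passed (edgeR adjusted p = 0.0733). COL12A1, at 424, 434 and 406 CPM at 100 µM and 407, 454 and 402 CPM at 0 µM, had overlapping groups and a log2 change of 0.00 ± 0.05.

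The remaining tested chains did not pass at 100 µM. COL7A1 had 190, 194 and 188 CPM at 100 µM and 192, 189 and 199.5 CPM at 0 µM. COL15A1 had 178, 188 and 177 CPM at 100 µM and 185, 182 and 181 CPM at 0 µM, and COL18A1, which shares 1401 exonic bases with SLC19A1 on the opposite strand, had 75.6, 82.1 and 78.9 CPM at 100 µM and 77.1, 71.8 and 73.1 CPM at 0 µM. The groups overlap in all 3. COL6A1 averaged 1.86 ± 0.118 CPM at 100 µM and 1.49 ± 0.154 CPM at 0 µM, and COL25A1, a transmembrane chain of nerve cells, 1.02 ± 0.117 and 1.23 ± 0.346 CPM. The 3 tested chains under 1 CPM, COL11A2, COL6A2 and COL10A1, had edgeR adjusted p of 0.769, 0.666 and 0.912.

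**Figure D2:**
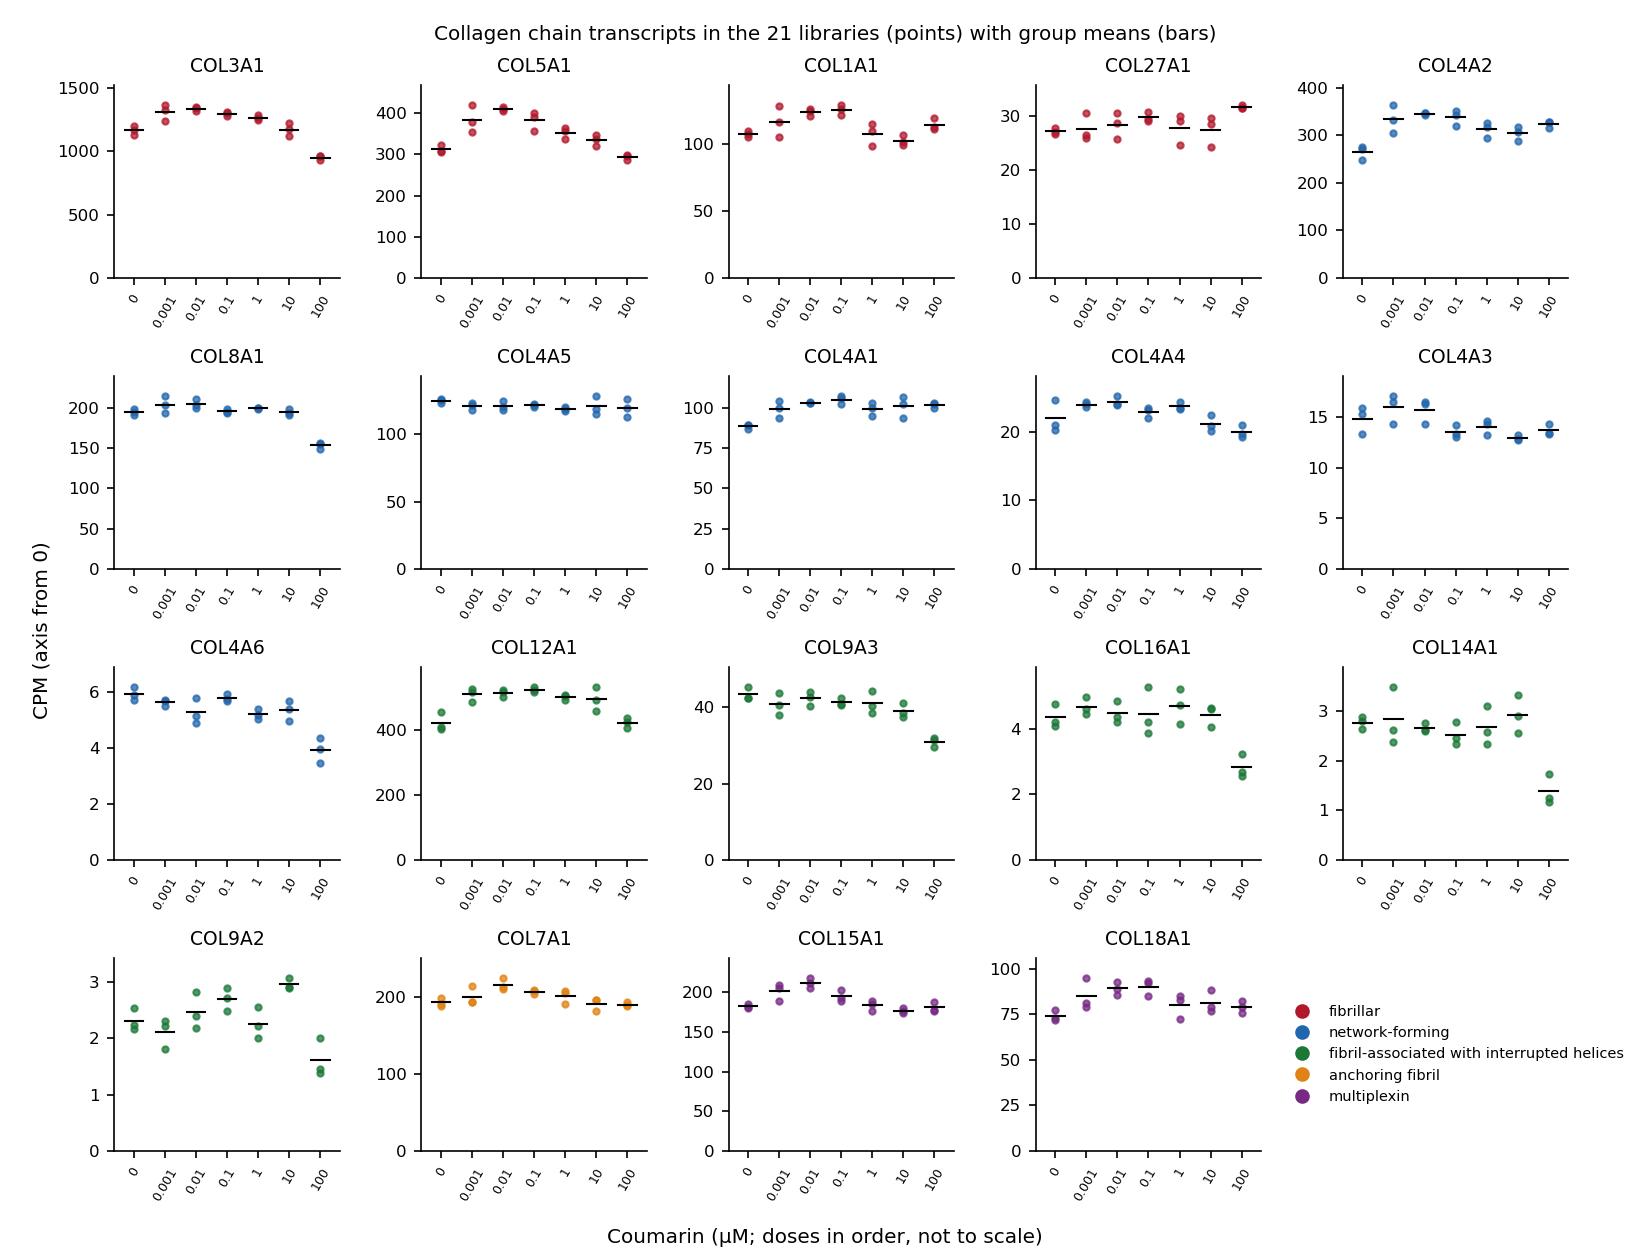
CPM in each of the 21 libraries (points) and group means (bars) for the 19 chains that averaged at least 10 CPM, passed at 10 or 100 µM against 0 µM or passed in the trend over dose; doses are in order and not to scale, and each vertical axis starts at 0. COL3A1, COL8A1, COL4A6, COL16A1 and COL14A1 have their lowest values at 100 µM, while COL4A2, COL5A1 and COL12A1 lie above their 0 µM values at 0.001 to 1 µM.

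With no library at 0 µM in the comparison, 100 µM against 10 µM gave 11 chains past the threshold, 2 higher and 9 lower, where 18.3% of all genes tested passed, 8.22% higher and 10% lower. Of genes averaging at least 10 CPM 26.3% passed, against 7 of the 15 chains at that level. Of the 11 chains, 7 were lower in both comparisons with 100 µM, which share the 100 µM libraries. COL3A1 (log2 change -0.30 ± 0.04), COL8A1 (-0.34 ± 0.04), COL14A1 (-1.07 ± 0.18), COL9A2 (-0.88 ± 0.16), COL16A1 (-0.64 ± 0.13), COL9A3 (-0.33 ± 0.06) and COL4A6 (-0.43 ± 0.11) were lower than at 10 µM, with edgeR adjusted p from 2.54e-07 to 0.00418 for all but COL8A1, at 9.34e-09. All 7 kept the call in each of 15 alternatives. The libraries at 10 µM held 1117, 1221 and 1173 CPM of COL3A1, 193, 199 and 190 CPM of COL8A1 and 37.6, 38.5 and 41.2 CPM of COL9A3. They held 5.69, 5.40 and 4.96 CPM of COL4A6, 4.05, 4.60 and 4.62 CPM of COL16A1, 3.32, 2.90 and 2.56 CPM of COL14A1 and 2.92, 2.90 and 3.07 CPM of COL9A2. Each of these values lay above all 3 of that chain at 100 µM. COL5A1 and COL12A1 were lower at 100 µM too, by 0.19 ± 0.05 and 0.23 ± 0.05 on the log2 scale (edgeR adjusted p = 0.00315 and 0.000346). COL5A1 had 296, 297 and 287 CPM at 100 µM and 321, 337 and 348 CPM at 10 µM, groups that do not overlap, and COL12A1 had 424, 434 and 406 CPM at 100 µM and 457, 530 and 492 CPM at 10 µM. The higher chains, COL1A1 and COL27A1, lost the call in 6 and 11 of 15 alternatives. Against the 12 libraries at 0.001 to 1 µM, 13 chains passed at 100 µM, 12 lower and 1 higher, where 33.1% of all genes passed. In those 12 libraries COL3A1 ran from 1234 to 1362 CPM with a median of 1305, COL8A1 from 194 to 214 with a median of 199, and COL9A3 from 38.1 to 44.2 with a median of 40.8. The values of these 3 chains at 100 µM lay below all 12. COL9A2 ran from 1.82 to 2.89 CPM with a median of 2.36, which overlaps its values at 100 µM, and COL27A1, the higher chain, from 24.7 to 30.9 CPM with a median of 29.1, below its values at 100 µM.

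**Figure D3:**
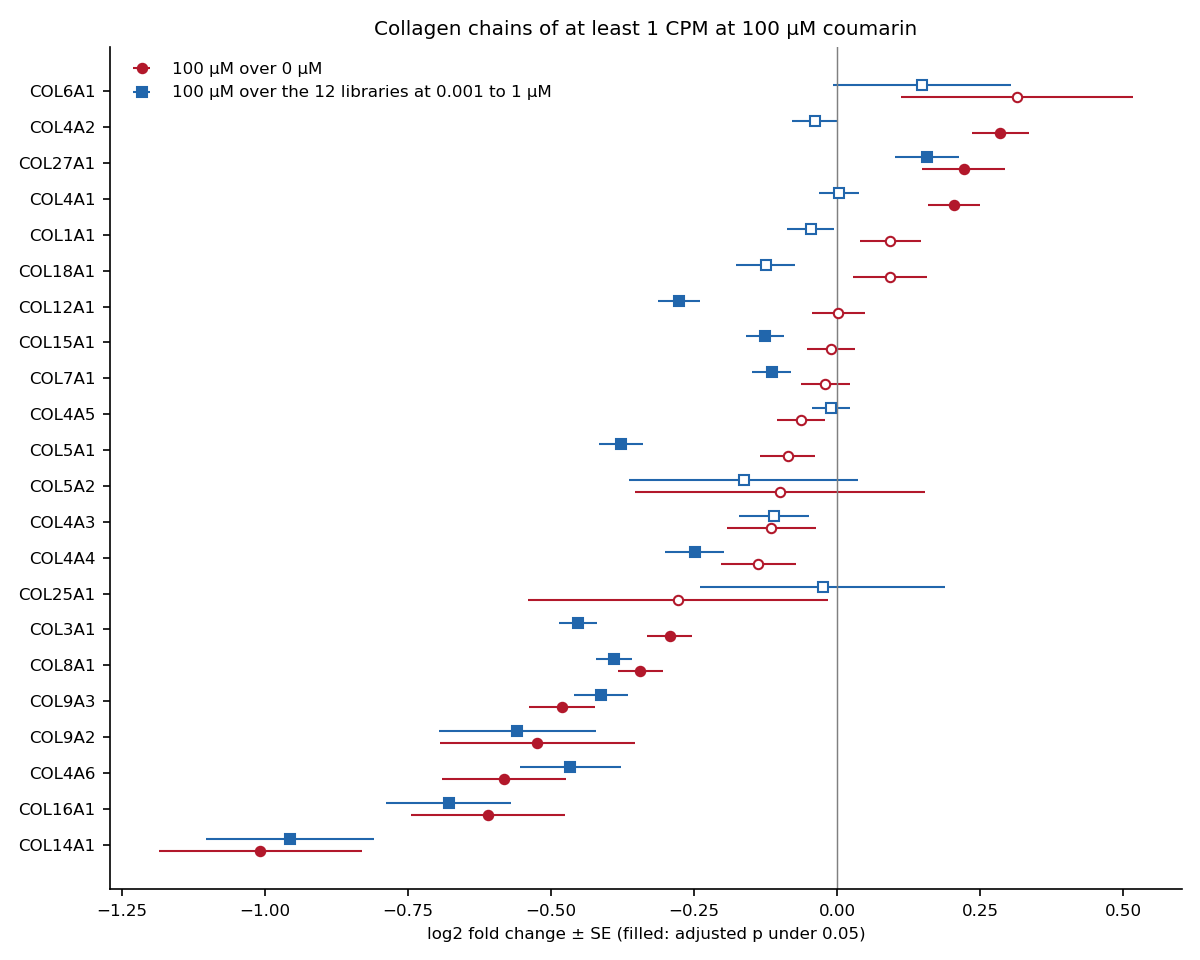
Log2 fold change with its SE for the 22 tested chains of at least 1 CPM, at 100 µM over 0 µM (circles) and over the 12 libraries at 0.001 to 1 µM (squares); filled symbols passed at an adjusted p under 0.05. COL14A1, COL16A1, COL4A6, COL9A2, COL9A3, COL8A1 and COL3A1 are lower against either set, while COL4A2 and COL4A1 are higher only against 0 µM and lie at -0.04 and 0.00 against the lower doses.

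From 0.001 to 10 µM every collagen call was a rise over 0 µM. These 5 comparisons share the same 3 control libraries and are not independent. At 0.001 µM 4 chains were higher (1.34% of all genes tested), at 0.01 µM 9 (4.77%), at 0.1 µM 7 (5.02%), at 1 µM 4 (1.57%) and at 10 µM 3 (1.74%). All of them were among the 15 chains of at least 10 CPM, and of all genes at that level 2.29%, 8.12%, 8.57%, 2.68% and 2.93% were higher at those doses. Calls over all genes tested were mostly rises too. The shares of all genes tested that were lower at those doses were 0.192%, 1.09%, 1.43%, 0.431% and 0.874%. The summed collagen level was 3690 ± 188 CPM at 0.001 µM, 3807 ± 21.9 at 0.01 µM, 3709 ± 72.4 at 0.1 µM, 3546 ± 92.5 at 1 µM and 3394 ± 146 at 10 µM, against 3257 ± 61.7 at 0 µM (SD, n = 3 each). Of the 15 chains, 7 had their highest mean at 0.01 µM and 4 at 0.1 µM. The groups also differ in the excess of the FPKM total over the counts on genes. As a percentage of those counts its means were 2.58% to 4.61% at these doses and 7.23% at 0 µM.

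COL4A2 passed at all 6 doses. It had 306, 333 and 363 CPM at 0.001 µM, 348, 347 and 343 at 0.01 µM, 342, 350 and 321 at 0.1 µM, 326, 318 and 295 at 1 µM and 288, 319 and 308 at 10 µM, and all of these values lay above the highest at 0 µM, 277 CPM. Its largest change was 0.38 ± 0.05 on the log2 scale at 0.01 µM, or 1.30-fold (edgeR adjusted p = 1.06e-05). COL5A1 had 354, 378 and 419 CPM at 0.001 µM, 410, 406 and 414 at 0.01 µM, 401, 389 and 356 at 0.1 µM and 357, 363 and 337 at 1 µM, and passed at these 4 doses. All 12 values lay above the highest at 0 µM, 323 CPM, and the change at 0.01 µM was 0.40 ± 0.05 (edgeR adjusted p = 3.83e-06). COL12A1 passed at the 5 doses up to 10 µM. It had 484, 515 and 524 CPM at 0.001 µM, 499.6, 515 and 522 at 0.01 µM, 529, 522 and 516 at 0.1 µM and 505, 503 and 491 at 1 µM, all above the highest value at 0 µM, 454 CPM, and its largest change was 0.31 ± 0.05 at 0.1 µM (edgeR adjusted p = 3.37e-05).

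These 3 chains kept the call at 0.001, 0.01 and 0.1 µM in each of 16 alternatives. With control replicate 1 alone, 3 chains passed at each of those 3 doses, all higher, where 0.557%, 1.49% and 1.11% of all genes were higher, and COL4A2 then had log2 changes of 0.30, 0.36 and 0.32 with edgeR adjusted p of 0.0319, 0.00492 and 0.0132. COL3A1 passed at 0.001, 0.01 and 0.1 µM. It had 1234, 1323 and 1362 CPM at 0.001 µM, 1319, 1340 and 1348 at 0.01 µM and 1308, 1303 and 1278 at 0.1 µM, all above the highest value at 0 µM, 1196 CPM, with a largest change of 0.20 ± 0.04 at 0.01 µM (edgeR adjusted p = 0.00122). With control replicate 1 alone its changes were 0.13, 0.17 and 0.12 and did not pass, with edgeR adjusted p of 0.381, 0.12 and 0.381. COL3A1 was above its 0 µM libraries at these 3 doses and below them at 100 µM. The other rises were those of COL4A1 at 0.01 to 10 µM, COL1A1 and COL18A1 at 0.01 and 0.1 µM, and COL7A1 and COL15A1 at 0.01 µM, with log2 changes of 0.16 to 0.28, and with control replicate 1 alone none of them passed. Over the 12 libraries at 0.001 to 1 µM, COL4A1 ran from 93.6 to 107 CPM, all above its highest value at 0 µM, 89.5 CPM. COL1A1 ran from 98.4 to 128.5 CPM, COL18A1 from 72.6 to 94.8, COL7A1 from 192 to 225 and COL15A1 from 177 to 218, and over all 4 doses these chains overlap their ranges at 0 µM. At 0.01 µM alone, where each of them passed, COL1A1 had 120.4 to 125.6 CPM, COL18A1 85.9 to 92.6, COL7A1 211.5 to 225 and COL15A1 206 to 218, all above their highest values at 0 µM.

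The counts at 1 and 10 µM rest on few libraries. At 1 µM the 4 chains were COL12A1, COL4A2, COL5A1 and COL4A1, with log2 changes of 0.25, 0.24, 0.18 and 0.17 and edgeR adjusted p of 0.00225, 0.00829, 0.0361 and 0.0416. Without control replicate 3 none passed, without control replicate 2 there were 2, and without replicate 1 or replicate 2 at 1 µM there was 1. At 10 µM COL12A1, COL4A2 and COL4A1 passed, with log2 changes of 0.23, 0.20 and 0.19 and edgeR adjusted p of 0.00355, 0.0246 and 0.0135. Without control replicate 3 or replicate 2 at 10 µM none passed, and without replicate 3 at 10 µM there was 1. At 0.1 µM the count was 4 without replicate 1 of that dose.

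Over the 18 treated libraries, the slope on log10 dose passed for 11 chains, all downward, where 21.5% of 16522 genes passed and 11.5% fell. Of genes averaging at least 10 CPM 30.6% passed and 15.6% fell, against 9 of the 15 chains at that level, all downward. COL5A1 fell by 0.09 ± 0.01 on the log2 scale per log10 unit of dose (edgeR adjusted p = 2.55e-05), COL3A1 by 0.08 ± 0.01 (9e-05), COL15A1 by 0.05 ± 0.01 (0.000322), COL4A4 by 0.06 ± 0.01 (0.000685) and COL4A3 by 0.06 ± 0.01 (0.00447). COL16A1, COL4A6, COL9A3, COL8A1, COL12A1 and COL7A1 also fell, with slopes of -0.03 to -0.09. Without the 100 µM libraries 4 chains passed, all downward. COL5A1, COL3A1, COL4A3 and COL15A1 kept the call in each of 25 alternatives, that one included. COL15A1 had 212 ± 6.04 CPM at 0.01 µM, 195 ± 7.24 at 0.1 µM, 184 ± 5.93 at 1 µM and 177 ± 3.08 at 10 µM. Its end doses did not continue this fall, with 201 ± 10.9 CPM at 0.001 µM and 181 ± 6.21 at 100 µM. The test of all 7 groups at once passed for 17 of the 25 chains, where 30% of all genes tested passed, and for 13 of the 15 chains of at least 10 CPM, where 43.7% did. COL4A5 and COL27A1 were the 2 chains at that level that did not pass.

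Enzymes and chaperones that process collagen moved in either direction at 100 µM. The counts of the 4 lists below stand beside 27.3% of all genes tested and 37.4% of genes of at least 10 CPM that passed at 100 µM, and beside 12.6% of all genes with control replicate 1 alone. Of 24 biosynthesis genes 22 were tested and 11 passed (50%), 4 higher and 7 lower. PLOD2, a lysyl hydroxylase of the telopeptides, averaged 428 ± 9.66 CPM at 100 µM and 524 ± 1.41 CPM at 0 µM, a log2 change of -0.29 ± 0.04 (edgeR adjusted p = 7.37e-07). SERPINH1, the collagen chaperone HSP47, averaged 159.7 ± 3.04 CPM at 100 µM and 130.3 ± 2.48 CPM at 0 µM, a log2 change of 0.29 ± 0.05 (edgeR adjusted p = 3.3e-06). SEC23A, of the coat that exports procollagen from the endoplasmic reticulum, and the prolyl 3-hydroxylase P3H1 fell by 0.22 ± 0.04 and 0.25 ± 0.05 on the log2 scale. With control replicate 1 alone 7 genes of the list passed, and SERPINH1 was still higher (log2 change 0.26, edgeR adjusted p = 0.00497).

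Of 14 maturation and cross-linking genes 10 were tested and 6 passed (60%, against 27.3% of all genes), 1 higher and 5 lower. TLL1, a procollagen C-proteinase, averaged 123.5 ± 2.28 CPM at 100 µM and 152 ± 3.50 CPM at 0 µM (log2 change -0.30 ± 0.04), and PCOLCE, the enhancer of that cleavage, 48.8 ± 3.12 and 56.5 ± 3.53 CPM (-0.21 ± 0.06). The lysyl oxidase LOXL4 averaged 1.06 ± 0.212 CPM at 100 µM and 2.30 ± 0.545 CPM at 0 µM (log2 change -1.10 ± 0.20), and the cross-linking enzyme TGM2 changed by -1.81 ± 0.08. The edgeR adjusted p of these 4 genes ran from 5.19e-20 to 0.00695. Of 19 degradation genes 12 were tested and 6 passed (50%), 2 higher and 4 lower, among them the protease FAP at -1.35 ± 0.11 and the inhibitor TIMP2 at -0.21 ± 0.04, with the inhibitor TIMP1 at 0.20 ± 0.05 and the membrane metalloproteinase MMP15 at 0.36 ± 0.10. Against the 12 libraries at 0.001 to 1 µM the change of TIMP1 was -0.00 and did not pass. Of this list 3 genes passed with control replicate 1 alone, TIMP1 and MMP15 not among them (edgeR adjusted p = 0.235 and 0.367).

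Of 29 genes for matrix proteins that lie beside collagen 18 were tested and 8 passed, 2 higher and 6 lower. That is 44.4%, against 27.3% of all genes and 37.4% of those of at least 10 CPM. The laminin chains LAMA1, LAMA5 and LAMB3, which form the second network of basement membranes, averaged 83.2 ± 1.33, 436 ± 12.8 and 39.9 ± 1.39 CPM at 100 µM and 117.5 ± 7.31, 556 ± 22.04 and 50.03 ± 0.965 CPM at 0 µM. Their log2 changes were -0.50 ± 0.04, -0.35 ± 0.07 and -0.33 ± 0.05, and that of THBS1, a matricellular glycoprotein, was -0.33 ± 0.06, with edgeR adjusted p from 1.59e-11 to 0.000387 for the 4 genes. Of this list 4 genes passed with control replicate 1 alone, and LAMA5 did not (edgeR adjusted p = 0.0582). The median change was -0.18 on the log2 scale for the tested genes of this list, -0.12 for maturation, -0.04 for biosynthesis and -0.04 for degradation, beside -0.01 for all genes. Of all genes 4.77% and 5.02% were higher at 0.01 and 0.1 µM than at 0 µM. The shares were 8.12% and 8.57% for genes of at least 10 CPM. At these doses 7 and 9 of the 18 partner genes passed, all higher. With control replicate 1 alone these counts were 3 and 4 of 20 tested, all higher, where 1.49% and 1.11% of all genes were higher. The summed mesenchymal markers, a list that includes FAP, were 1078 to 1158 CPM at 100 µM and 1328 to 1443 CPM at 0 µM, and of 9 tested 1 was higher and 3 lower. S100A4, the most abundant of them, averaged 703 CPM at 100 µM and 937 CPM at 0 µM, and PDGFRB averaged 20.1 and 37.25 CPM. VIM averaged 325 and 316 CPM and CDH2 67.1 and 60.9 CPM. The epithelial sum was 3315 to 3403 CPM at 100 µM and 4186 to 4659 CPM at 0 µM, with KRT8 at 1789 and 2407 CPM, KRT18 at 815 and 1215 CPM, and KRT7 at 757 and 755 CPM. The part of these marker differences in the collagen changes was not tested.

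**Figure D4:**
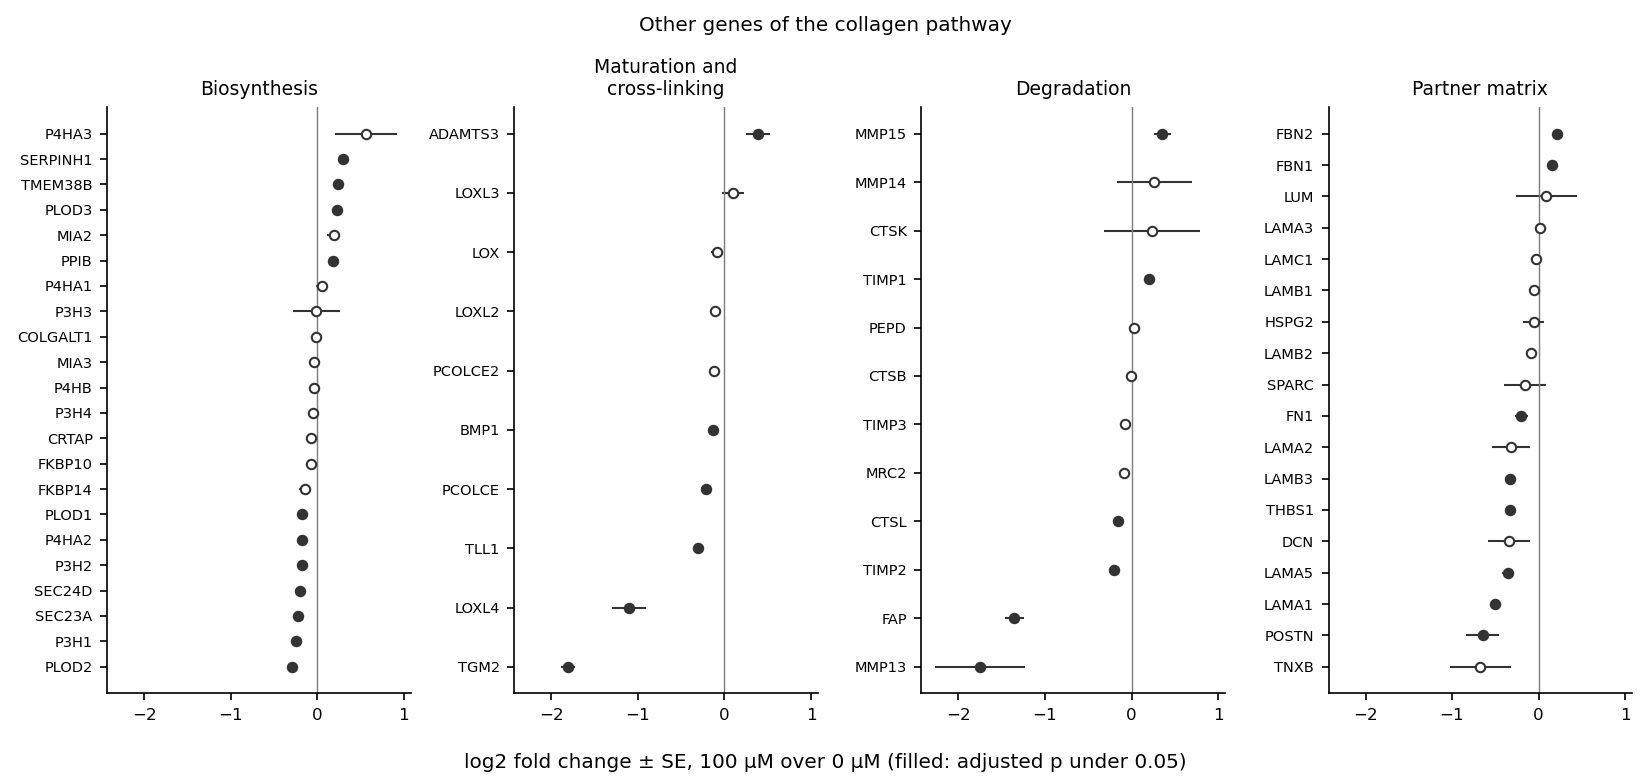
Log2 fold change with its SE at 100 µM over 0 µM for the tested genes of 4 lists: 22 of biosynthesis, 10 of maturation and cross-linking, 12 of degradation and 18 of partner matrix proteins; filled points passed at an adjusted p under 0.05. TGM2, FAP and LOXL4 lie at -1.81, -1.35 and -1.10, while SERPINH1 and PLOD2 lie at 0.29 and -0.29.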

How the data were processed

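The authors deposited whole-number counts per gene for 21 libraries of poly(dT)-selected RNA and a second table of FPKM scaled by gene length. Per the submitters' processing notes, which give no versions, HISAT2, DESeq2 and the build GRCh38 were used. The counting tool and its use of strand are not stated in these sources, nor is the library total used for FPKM. That total was computed from the genes of at least 20 counts. Libraries were grouped by the labelled dose. Testing used edgeR 4.0.16 in R 4.3.3 (filterByExpr, TMM, robust quasi-likelihood F tests in 1 fit of 21 libraries, 14 residual degrees of freedom, Benjamini-Hochberg adjustment over 16699 genes, two-sided, threshold 0.05; slope on log10 dose in 18 libraries). Baseline levels are the deposited FPKM, and CPM use TMM-scaled library sizes. Replicates varied by 4.49% (biological coefficient of variation). SDs and SEs include the spread between libraries, while the floor of 3 counts covers counting error only. The tests were checked on simulated data in which all genes had the same spread and only well-counted genes changed. That check does not cover chains of low counts or the uneven libraries at 0 µM.

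The chains and the 4 lists of other genes were chosen with earlier results of these data known. Values are given for every tested chain of at least 1 CPM. Values in each library at 0 and 100 µM are printed for chains of at least 10 CPM or called at 10 or 100 µM or in the slope; their other libraries are printed or plotted. From each list up to 4 called genes of at least 1 CPM with the smallest p at 100 µM are named. Of the 44 chains, 32 had a RefSeq promoter window. Without strand, reads of COL18A1 and SLC19A1 and of the antisense overlaps of COL16A1 (117 shared exonic bases), COL15A1 (137), COL4A3 (120), COL4A2 (81 and 14) and COL9A3 (45) cannot be told apart. Alternatives were RLE and upper-quartile scaling, other filters, 2-group fits, a replicate block, DESeq2 1.42.0, limma 3.58.1 on log2 of FPKM plus 1 or 0.1, control replicate 1 alone, the 12 libraries at 0.001 to 1 µM in place of the controls, the dose rank, the slope without 100 µM, and each library left out.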

Additional observations from a re-analysis of the deposited data

How the results depend on the processing

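Of 233 recomputed counts 211 stayed within 1.5 times the reported count. With control replicate 1 alone, the chains called numbered 6 at 100 µM, 1 at 10 µM, 1 at 1 µM, 3 at 0.1 µM and 3 at 0.01 µM, and 7 biosynthesis, 3 degradation and 4 partner genes passed at 100 µM; with 1 control library the lone sample is assumed to vary like the other groups. A fit of only the 2 groups gave 1 chain at 10 µM. Upper-quartile scaling, the filter of 1 CPM in 3 libraries and limma on log2 of FPKM plus 1 or 0.1 each gave 2 chains at 1 µM. The slope without 100 µM gave 4. The cause of these shifts was not tested. With 1 library left out, counts ran from 8 to 10 at 100 µM, 0 to 3 at 10 µM, 0 to 4 at 1 µM, 4 to 7 at 0.1 µM, 7 to 10 at 0.01 µM, 3 to 6 at 0.001 µM, 9 to 11 for 100 against 10 µM, 17 to 18 for all 7 groups and 8 to 13 for the slope, and from 9 to 11 for biosynthesis, 4 to 6 for maturation, 4 to 6 for degradation and 6 to 9 for partner genes. Against the 12 libraries at 0.001 to 1 µM, signs turned for COL4A2 at 100 µM (-0.0387) and 10 µM (-0.13), COL12A1 (-0.0508) and COL4A1 (-0.00935) at 10 µM, and TIMP1 at 100 µM (-0.000239).

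Same-numbered libraries did not deviate together (median correlation 0.00608 over 63 pairs, and 5 of 21 libraries correlated best with their own number). The main fits therefore treat the libraries as unpaired. With so few libraries a group, the check cannot exclude that libraries of the same number were handled together. With the replicate block the counts were 10 at 100 µM, 3 at 10 µM, 4 at 1 µM, 7 at 0.1 µM, 9 at 0.01 µM, 4 at 0.001 µM, 10 for 100 against 10 µM, 17 for all 7 groups and 11 for the slope, and 12, 5, 6 and 7 for the biosynthesis, maturation, degradation and partner lists. Library depth limits chains under about 1 CPM, 3 of the 25 tested, most.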
